A study of Mus musculus with 32 samples.

Results

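Full-length PRDM16 (f-PRDM16) was put back into mouse MLL-AF9 leukaemia cells that lack Prdm16, and the RNA of these cells was compared with that of knockout cells carrying an empty vector. The members are 6 libraries of 32 in the series: 3 of PRDM16-KO cells given the full-length form (KO+f) and 3 of PRDM16-KO cells given an empty vector (KO+EV). They were chosen by their names in the table of leukaemia counts. The same table of 12 libraries holds 3 of knockout cells carrying the short form (KO+s) and 3 of wild-type cells given an empty vector (WT+EV), which are used here to place the levels. All 12 carried the MLL-AF9 fusion and were ex vivo cells of moribund mice, sorted and not grown or treated. The labels give no promoter for the added PRDM16, no age or strain, and, though the design text calls the replicates independent, do not say whether the 3 libraries of a group came from separate transductions or mice. The other 20 libraries are of sorted haematopoietic stem cells and are not used here. The p-values therefore measure the spread between these libraries, which may be technical.

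PRDM16 is a zinc finger protein of the PR domain family that acts on chromatin and is needed to maintain haematopoietic stem cells. The full-length form carries the PR domain at its amino terminus, and the short form lacks it. MLL-AF9 is a fusion of a histone methyltransferase with a transcription elongation factor that turns myeloid progenitors into leukaemia and keeps genes such as Hoxa9 and Meis1 active. The comparison addresses what f-PRDM16 does to the RNA of leukaemia cells that have lost the gene.

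Library depth was 20165568 to 21847257 counts in KO+f and 18942398 to 21023042 in KO+EV. Across all 12 libraries it was 16353584 to 23785307 counts. Levels are CPM, counts scaled to a common library size with trimmed-mean factors, which compare a gene between libraries and not genes of different length with each other. In a principal component analysis of the 12 libraries the first component held 47.4% of the variance. On it KO+f 1 and KO+f 2 stood at 28.9 and 41.7, KO+f 3 at -1.86, and the KO+EV libraries between -62.8 and -43.7. On this component KO+f 3 therefore lay between the other KO+f libraries and KO+EV. On the second component KO+f 3 stood lowest of the 12 libraries, at -49.0, against -27.7 and -22.2 in KO+f 1 and 2. KO+EV 3 stood apart from KO+EV 1 and 2 on the second component, and Mpo, a granule enzyme of early myeloid cells that is named here after its values were seen, reached 33196 CPM in it. Mpo had 3691, 7131 and 3773 CPM in KO+f 1, 2 and 3, against 3889 and 3269.8 CPM in KO+EV 1 and 2. The ribosomal precursor Rn45s, which poly-A selection should leave out and which is also named after its values were seen, had 3550.0, 6274 and 4871 CPM in KO+f and 3518, 1757 and 4990.2 CPM in KO+EV, ranges that overlap. Ptprc, the pan-leukocyte marker CD45, also named after its values were seen, was above 500 CPM in each of the 12 libraries. A gene is said to hold its call where it passed in each of the 12 fits that leave out 1 library.

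Prdm16 itself had 331, 234 and 236 CPM in KO+f 1, 2 and 3, against 0, 0.0915 and 0.0521 CPM in KO+EV. WT+EV cells had 0.991, 0.723 and 0.424 CPM. Over 3 libraries each, KO+f held 16992 counts and KO+EV 3, a ratio of 5378 with a 95% counting interval of 1840 to 26080, which covers counting error only. Against the 40 counts of WT+EV the ratio was 383.7 (281.6 to 537.2). The added gene was therefore far above the level of wild-type leukaemia cells. KO+f 2 and KO+f 3 had close levels of Prdm16, although they stood apart on the first component. Reads over the whole gene do not tell the 2 forms apart.

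In edgeR's quasi-likelihood test 1461 of 12958 genes passed an adjusted p of 0.05, 892 higher in KO+f and 569 lower (Benjamini-Hochberg adjustment, all 12 libraries in the fit). That is 11.3% of the genes tested, 6.88% higher and 4.39% lower, and these shares are the background for every list below. The higher genes moved further: 627 of them lay above a log2 change of 1, and 196 above 3. Of the lower genes 217 fell by over 1 and 30 by over 3. The median log2 change over all genes was -0.0116. The number passing was 559 without KO+f 2, 563 without KO+EV 2, 698 without KO+f 1 and 932 without KO+EV 3. It was 392 where only the 2 groups entered the fit and 2267 in DESeq2. The CPM ranges of the 2 groups did not overlap for 34.9% of all genes tested. Of the 892 genes higher in KO+f, 570 (63.9%) had their lowest KO+f value in KO+f 3. Over all genes tested, KO+f 3 was the lowest of the KO+f libraries in 43.2%.

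**Figure D1:**
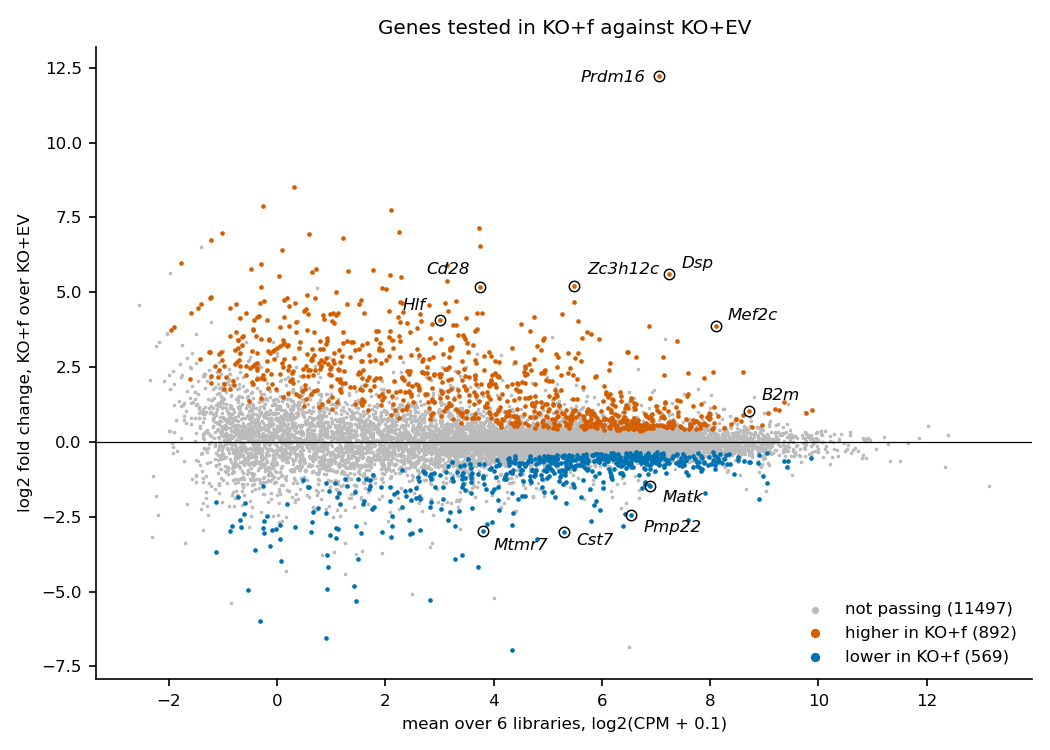
Each point is 1 of 12958 genes, by its mean level over the KO+f and KO+EV libraries (x axis, log2 of CPM + 0.1) and its log2 fold change, KO+f over KO+EV (y axis). Coloured genes passed an adjusted p of 0.05, 892 higher in orange and 569 lower in blue, and Prdm16 lies far above all others.

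Among the genes with the largest rises, Cd28, a costimulatory receptor best known on T cells, had 32.7, 30.6 and 14.8 CPM in KO+f, against 1.02, 0.641 and 0.469 CPM in KO+EV. The groups did not overlap. The rule for genes with the largest changes or the smallest p took only genes without overlap, so this was fixed in advance. List members below were mostly named for the smallest p among called genes, which favours lack of overlap. For them it is therefore no added support. The log2 change of Cd28 was 5.19 ± 0.42 (± standard error throughout, adjusted p = 0.000139). Dsp, which encodes the desmosomal linker desmoplakin, had 373, 355 and 158 CPM in KO+f, against 15.1, 2.65 and 0.469 CPM in KO+EV (5.61 ± 0.89, adjusted p = 0.00546). KO+f 3 was the lowest KO+f library for both genes. Zc3h12c, a CCCH zinc finger protein of the regnase family, ran the other way within the group, with 67.6, 90.99 and 104 CPM in KO+f, against 5.44, 1.28 and 0.469 CPM in KO+EV (5.19 ± 0.87, adjusted p = 0.00615).

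Arap2, a GTPase-activating protein for small G proteins, had 87.1, 126 and 46.03 CPM in KO+f, against 8.60, 1.10 and 0.521 CPM in KO+EV (4.67 ± 0.79, adjusted p = 0.00630). Ahnak, a very large scaffold protein, had 75.98, 99.9 and 90.5 CPM in KO+f, against 8.19, 3.34 and 4.63 CPM in KO+EV (4.04 ± 0.37, adjusted p = 0.000395). Its KO+f libraries lay close together. Fhdc1, a formin-domain protein, rose by 4.18 ± 0.53 (adjusted p = 0.00169), and Mmp28, a secreted metalloprotease, by 4.13 ± 0.52 (adjusted p = 0.00169). Every gene named so far among the risers held its call. Satb1, a chromatin organiser of lymphoid and stem cells, also met the rule, with 8.27, 39.8 and 24.9 CPM in KO+f, against 2.29, 0.549 and 0.833 CPM in KO+EV (4.31 ± 1.22, adjusted p = 0.0454). It passed in 3 of the 12 leave-one-out fits. Without KO+f 1, 2 and 3 its adjusted p was 0.0579, 0.116 and 0.0674, without KO+EV 1, 2 and 3 0.0623, 0.138 and 0.122, and without KO+s 1, 2 and 3 0.0625, 0.0617 and 0.0625.

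Genes chosen for a small p rose by less in some cases and had even libraries, which choice by p favours. Pde1b, a calmodulin-dependent phosphodiesterase, had 225, 233 and 230.4 CPM in KO+f, against 112, 100.3 and 92.1 CPM in KO+EV (1.18 ± 0.13, adjusted p = 0.000657). Mapk8, the stress kinase JNK1, had 88.1, 102 and 98.01 CPM in KO+f, against 52.1, 44.8 and 47.4 CPM in KO+EV (1.00 ± 0.11, adjusted p = 0.000917). Hdac9, a class IIa histone deacetylase that binds MEF2 factors, had 19.02, 20.8 and 15.5 CPM in KO+f, against 2.44, 1.92 and 4.06 CPM in KO+EV (2.71 ± 0.27, adjusted p = 0.000450). The groups did not overlap for any of these genes, as the rule that chose them required. Ddx60, a helicase linked to antiviral sensing (2.85 ± 0.28, adjusted p = 0.000441), Spns2, the exporter of sphingosine 1-phosphate (3.40 ± 0.34, adjusted p = 0.000455), and Plekho1, a pleckstrin-domain adaptor (2.55 ± 0.26, adjusted p = 0.000557), rose as well. All 6 held their calls.

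Among the genes that fell, Mtmr7, a phosphoinositide phosphatase of the myotubularin family, had 2.82, 1.53 and 5.10 CPM in KO+f, against 25.8, 27.7 and 20.8 CPM in KO+EV (-2.97 ± 0.43, adjusted p = 0.00303). Cst7, the protease inhibitor cystatin F, had 6.28, 9.01 and 10.6 CPM in KO+f, against 39.9, 29.7 and 139 CPM in KO+EV (-3.01 ± 0.54, adjusted p = 0.00813). Matk, a kinase that turns off SRC-family kinases, had 59.4, 49.4 and 80.8 CPM in KO+f, against 181, 169 and 171 CPM in KO+EV (-1.46 ± 0.16, adjusted p = 0.000657). The groups did not overlap, as the rule that chose these genes required. The KO+EV libraries lay close together for Mtmr7 and Matk, and Cst7 was highest in KO+EV 3.

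Dgat2, which makes triacylglycerol, had 24.2, 16.9 and 22.7 CPM in KO+f, against 155, 105 and 51.5 CPM in KO+EV (-2.29 ± 0.34, adjusted p = 0.00381). Its KO+EV libraries spread widely, and all stood above KO+f. Pmp22, a small membrane glycoprotein known from myelin, fell by 2.44 on the log2 scale (SE 0.48, adjusted p = 0.0120). Acp6, a lysophosphatidic acid phosphatase (-1.12 ± 0.12, adjusted p = 0.000665), the nucleobase transporter gene Slc43a3 (-1.01 ± 0.13, adjusted p = 0.00160), the prostacyclin receptor gene Ptgir (-1.70 ± 0.23, adjusted p = 0.00192), the Fc receptor gene Fcgr4 (-1.27 ± 0.20, adjusted p = 0.00404) and Gbp3, an interferon-inducible GTPase with close paralogs (-1.33 ± 0.20, adjusted p = 0.00395), fell. The falling genes named so far held their calls. Rbfox2, a splicing regulator, had 4.67, 1.20 and 9.50 CPM in KO+f, against 39.3, 37.1 and 29.5 CPM in KO+EV (-2.78 ± 0.58, adjusted p = 0.0145), and its adjusted p was 0.0560 without KO+f 1.

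Of the 12 largest falls 3 held their calls, namely Cst7, Mtmr7 and Pmp22, against 10 of the 12 largest rises. C1qtnf6, a secreted protein of the C1q and TNF-related family, was the largest of these falls, with 3.36, 0.671 and 11.8 CPM in KO+f, against 31.6, 50.01 and 68.8 CPM in KO+EV (-3.24 ± 0.84, adjusted p = 0.0325). It did not pass without KO+EV 2 (0.0784), KO+EV 3 (0.0754), KO+f 1 (0.104) or KO+f 2 (0.0644). Hdc, which makes histamine, had 13.9, 9.06 and 39.8 CPM in KO+f, against 74.7, 75.7 and 292 CPM in KO+EV (-2.81 ± 0.69, adjusted p = 0.0275), and did not pass without KO+EV 3 (0.0847), KO+f 1 (0.0909) or KO+f 2 (0.0943). Of the other large falls, Fbln2 passed in 10 of the 12 leave-one-out fits, Tmem215 in 9, Mtap1b in 8, Cldn23 in 4, and Abcg2 and Mgl2 in 3 each. The 12 genes with the smallest p in each direction all held their calls, which choice by a small p favours.

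**Figure D2:**
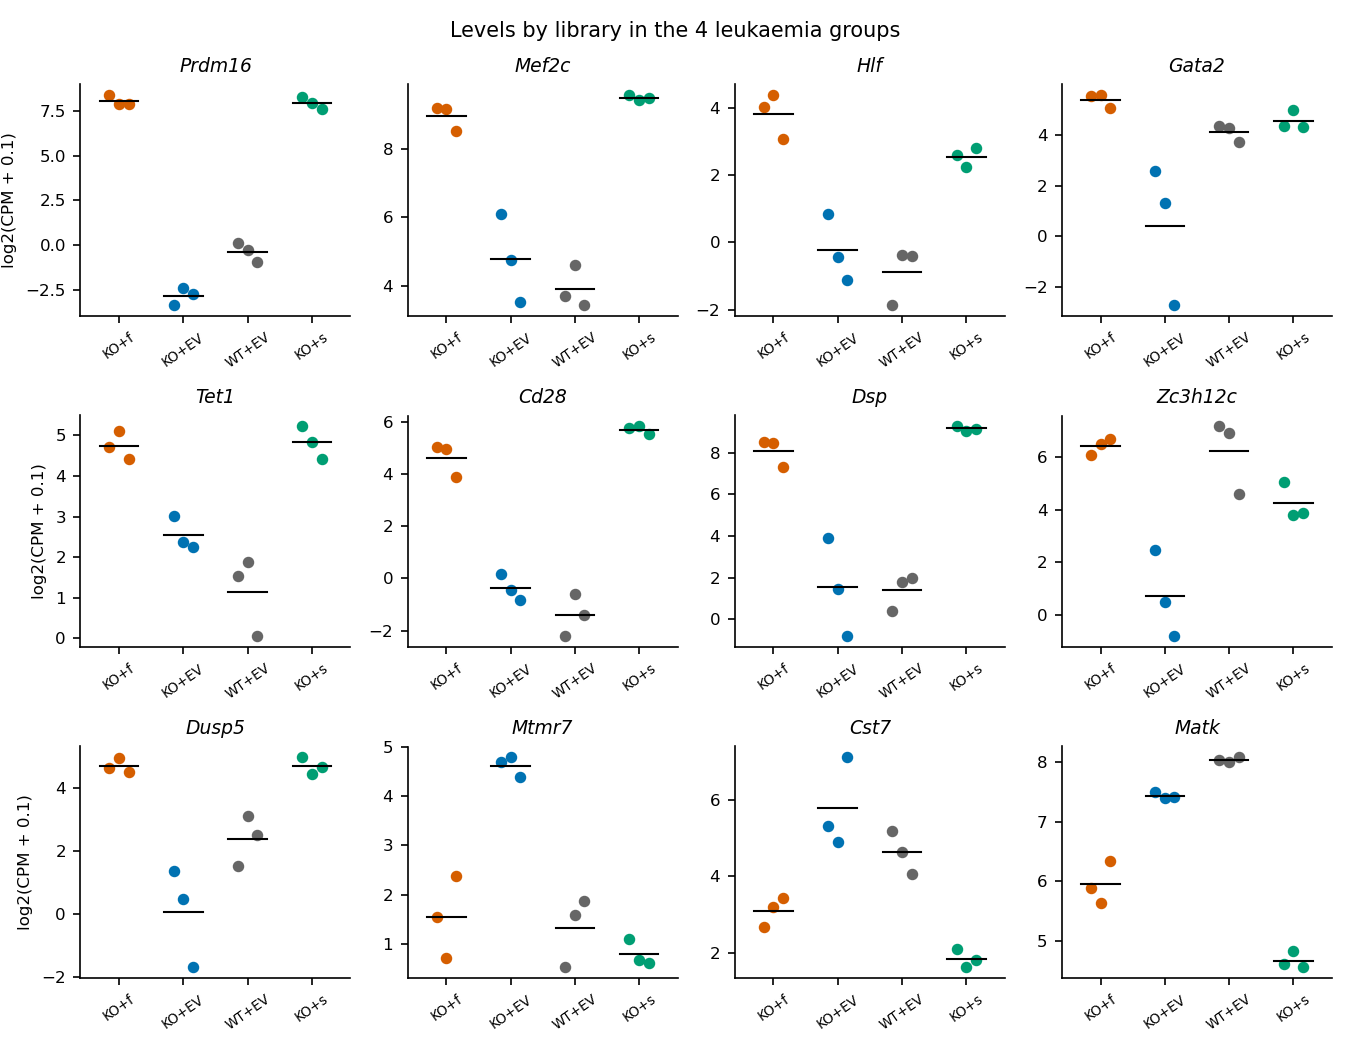
Each panel shows 1 gene, with a point per library (log2 of CPM + 0.1) and a bar at the mean of the 3 libraries of KO+f, KO+EV, WT+EV and KO+s. KO+f stands above KO+EV for the genes from Prdm16 to Dusp5 and below it for Mtmr7, Cst7 and Matk. KO+f 3 is the KO+f library closest to KO+EV for every gene shown except Prdm16 and Zc3h12c.

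Transcription factors of stem and progenitor cells were among the genes that rose. Of 46 tested, 9 passed as higher and 2 as lower, with a median log2 change of 0.76. Hlf, a PAR bZIP factor that marks stem cells, had 16.1, 20.8 and 8.39 CPM in KO+f, against 1.68, 0.641 and 0.365 CPM in KO+EV (4.07 ± 0.58, adjusted p = 0.00278). Mef2c, a MADS-box factor of lymphoid and myeloid progenitors, had 591, 579 and 371 CPM in KO+f, against 67.96, 26.6 and 11.4 CPM in KO+EV (3.86 ± 0.56, adjusted p = 0.00385). KO+f 3 was the lowest KO+f library for both genes and still above every KO+EV library, and both held their calls. The number lower in this list was 0 without KO+f 1, KO+f 2, KO+f 3 or KO+EV 2, and 1 without KO+EV 1 or KO+EV 3.

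Gata2, a zinc finger factor of stem, mast and megakaryocytic cells, had 46.3, 47.8 and 33.5 CPM in KO+f, against 5.90, 2.38 and 0.0521 CPM in KO+EV (3.93 ± 0.77, adjusted p = 0.0116, and 0.0514 without KO+EV 2). The nuclear receptor gene Nr4a1 rose by 1.95 ± 0.37 (adjusted p = 0.00892) and passed in every leave-one-out fit. Cebpa, the factor that drives granulocytic differentiation, had 115, 134 and 132 CPM in KO+f, against 185, 213 and 249 CPM in KO+EV (-0.77 ± 0.20, adjusted p = 0.0328). Gfi1, a repressor of the same lineage that is named after its values were seen, had 349, 329 and 257 CPM in KO+f, against 477, 486 and 483 CPM in KO+EV (-0.63 ± 0.16, adjusted p = 0.0309). The groups overlapped for neither gene, but the calls depended on single libraries. The adjusted p of Cebpa reached 0.0807, 0.0894, 0.105, 0.0820 and 0.0552 without KO+EV 2, KO+EV 3, KO+f 1, KO+f 2 and KO+f 3. That of Gfi1 was 0.0526, 0.0729 and 0.0769 without KO+f 1, 2 and 3, and 0.0579, 0.0841 and 0.0596 without KO+EV 1, 2 and 3. The number of factors passing as higher was 4 without KO+EV 2, 5 without KO+f 1, 6 without KO+f 2 and 11 without KO+f 3.

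The upstream sequence of Hlf is shown because it was the only window of the rising factors with the core of the cyclic AMP response element. RefSeq gives windows of 250 bases before to 50 after the start for 7 of the 9 factors that passed as higher. In them TGACGT, searched on both strands, was found for 1 factor, Hlf, and 7.51% of all such windows hold it. Other motifs were searched in the same windows. AGATAA and GATGAG were taken as cores of the first and second zinc finger clusters of PRDM16. They were found for 0 and 2 factors, against 11.2% and 12% of all windows. GATTGG was found for 2 factors (16.1% of all windows) and TGANTCA, the AP-1 site, for 1 (7.81%). The stretch that ends at the Hlf start (chr11:90390918-90391037, GRCm38.p6, minus strand), with TGACGT and the overlapping match on the opposite strand in capitals, read
Hlf: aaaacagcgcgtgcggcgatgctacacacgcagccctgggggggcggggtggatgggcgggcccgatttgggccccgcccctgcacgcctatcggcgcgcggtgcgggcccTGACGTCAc
These letters describe the window and say nothing of what binds there. The counts were made on mm9 and give no coordinates.

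Of 27 tested members of the MLL-AF9 programme 2 passed as higher and 2 as lower, so that 14.8% passed, against 11.3% of all genes. The numbers lower were 0 without KO+f 2, 1 without KO+f 1 or KO+EV 2 and 3 without KO+EV 3, and the numbers higher 3 without WT+EV 3, KO+EV 1 or KO+EV 3 and 4 without KO+f 3. Hoxa9 had 223, 187 and 224 CPM in KO+f, against 238, 249 and 159 CPM in KO+EV (-0.02 ± 0.17, adjusted p = 0.941), and Meis1 170.2, 134 and 159 CPM in KO+f, against 150.2, 150.2 and 62.9 CPM in KO+EV (0.35 ± 0.26, adjusted p = 0.399). The groups overlapped for both genes, which were named after their values were seen. Bcl2, the anti-apoptotic protein gene, had 81.2, 119.99 and 53.4 CPM in KO+f, against 17.96, 13.96 and 7.03 CPM in KO+EV (2.71 ± 0.51, adjusted p = 0.00957), and held its call.

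Some antigen presentation genes rose in both classes. MHC class I molecules show peptides from inside the cell and need B2m, and the activator Nlrc5 drives their genes. MHC class II molecules are made by antigen-presenting cells under the activator Ciita. Of 19 class I and peptide loading genes 8 passed as higher and 0 as lower (42.1% passed, median 0.48). Of 20 class II and presentation genes 7 passed as higher and 0 as lower (median 0.58). H2 genes are a family of close paralogs, so reads may be split between them.

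The upstream sequences below are shown because class I and class II promoters are known to share a set of elements that includes a Y box. The letters GATTGG were searched on both strands in the RefSeq windows, and 16.1% of all windows hold them. They were found in 12 of the 16 class II list genes and 10 of the 16 class I list genes that have a window. The windows of Tap1 and Psmb9 overlap, and their matches are the same site, counted under both genes. Of the genes that rose, 4 of 5 class II and 6 of 7 class I genes held them. Class I windows were searched after the values had been seen. In the stretches printed, which end at each start, GATTGG or its reverse complement and TGACGT or its reverse complement are in capitals (RefSeq, GRCm38.p6, plus strand except H2-Aa, with positions chr17:34287824-34287943, chr17:34305747-34305866, chr17:34238785-34238904, chr2:122147567-122147686, chr17:35379497-35379616 and chr17:35262974-35263093 in the order printed).
H2-Aa: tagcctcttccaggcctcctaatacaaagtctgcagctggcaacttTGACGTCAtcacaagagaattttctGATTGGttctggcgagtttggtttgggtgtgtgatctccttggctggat
H2-Eb1: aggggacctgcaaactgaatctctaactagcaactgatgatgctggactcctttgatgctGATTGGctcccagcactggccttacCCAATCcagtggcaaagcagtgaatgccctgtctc
H2-Ob: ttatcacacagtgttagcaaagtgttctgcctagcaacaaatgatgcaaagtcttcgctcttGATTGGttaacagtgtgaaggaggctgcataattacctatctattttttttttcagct
B2m: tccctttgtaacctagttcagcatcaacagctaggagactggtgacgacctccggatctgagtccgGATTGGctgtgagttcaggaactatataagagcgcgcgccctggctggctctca
H2-Q4: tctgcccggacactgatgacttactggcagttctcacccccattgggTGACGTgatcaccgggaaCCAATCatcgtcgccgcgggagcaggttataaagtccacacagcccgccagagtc
H2-D1: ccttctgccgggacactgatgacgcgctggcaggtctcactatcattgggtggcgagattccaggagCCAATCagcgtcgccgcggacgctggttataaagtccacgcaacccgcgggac
The Y box lay 49 to 60 bases before the start in these 6 genes, which were chosen for printing, and H2-Eb1 held a second match 35 bases before it. Matches in other class I and II genes were spread more widely, with 4 bases before the start in March1, 6 in 1 window of H2-K1, 101 in H2-Eb2, 199 in H2-DMa and 222 in Tap1.

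Within class I, B2m, the invariant chain, had 606, 683 and 411 CPM in KO+f, against 257, 279 and 288 CPM in KO+EV (1.05 ± 0.18, adjusted p = 0.00635). H2-K1 had 487, 532 and 334 CPM in KO+f, against 236, 272 and 282 CPM in KO+EV (0.78 ± 0.17, adjusted p = 0.0156). H2-Q4 had 57.7, 85.1 and 60.8 CPM in KO+f, against 21.3, 26.7 and 26.6 CPM in KO+EV (1.45 ± 0.23, adjusted p = 0.00413). The KO+f libraries lay above every KO+EV library in all 3 genes, and KO+f 3 was lowest for B2m and H2-K1. H2-D1 rose by 0.71 ± 0.14 (adjusted p = 0.0116) and H2-Q6 by 4.37 ± 0.68 (adjusted p = 0.00476). Nlrc5 had 22.9, 33.99 and 13.7 CPM in KO+f, against 6.41, 9.20 and 3.54 CPM in KO+EV (1.88 ± 0.42, adjusted p = 0.0193), and its groups did not overlap. Nlrc5, Tap1 and Tap2 were named after their values were seen. The H2-K1 call was lost without KO+f 1 (0.0532) or KO+f 2 (0.0543), and the Nlrc5 call without KO+f 2 (0.0687). Both peptide transporter genes did not pass. Tap1 had 117, 135 and 122 CPM in KO+f, against 92.8, 105 and 69.8 CPM in KO+EV (0.48 ± 0.17, adjusted p = 0.0898), and its partner Tap2 299, 304 and 225 CPM in KO+f, against 287, 276 and 299 CPM in KO+EV (-0.06 ± 0.18, adjusted p = 0.852). The class I count was 5 without KO+f 1 and 4 without KO+f 2.

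In class II, Ciita had 6.47, 4.65 and 1.73 CPM in KO+f, against 0.203, 0.641 and 0.365 CPM in KO+EV (3.38 ± 0.74, adjusted p = 0.0166). H2-Aa, a class II alpha chain, had 58.4, 40.03 and 23.4 CPM in KO+f, against 4.07, 11.3 and 6.46 CPM in KO+EV (2.47 ± 0.50, adjusted p = 0.0132). H2-Eb1, a beta chain, had 39.3, 24.1 and 17.3 CPM in KO+f, against 2.70, 8.33 and 5.31 CPM in KO+EV (2.30 ± 0.52, adjusted p = 0.0194). The groups did not overlap for any of these. The cathepsin gene Ctss (2.40 ± 0.40, adjusted p = 0.00610) and March1, a ubiquitin ligase that removes class II from the surface (2.12 ± 0.39, adjusted p = 0.00815), also rose. H2-Ab1, the beta chain that pairs with H2-Aa, was named after its values were seen, and had 46.7, 29.5 and 30.5 CPM in KO+f, against 22.1, 25.7 and 40.6 CPM in KO+EV (0.27 ± 0.45, adjusted p = 0.722), with overlapping groups. H2-Aa, Ctss and March1 held their calls, Ciita did not without KO+f 1 (0.0532), and H2-Eb1 did not without KO+EV 3 (0.0528) or KO+f 1 (0.0623). The class II count was 3 without KO+f 1. The summed level of 6 B cell markers was 11.2 to 36.8 CPM in KO+f and 6.67 to 13.6 CPM in KO+EV, most of it Cd79b, while Pax5 and Ms4a1 stayed under 0.2 CPM in these 6 libraries. The sum of 6 dendritic cell markers was 2.18 to 5.55 CPM in KO+f and 6.91 to 7.12 CPM in KO+EV, most of it Itgax. The wider dendritic cell list had its median on the other side, at 0.80, with 2 of 19 higher and 1 lower. Its median was 0.38 without KO+f 1 or KO+f 2, its number higher was 0 without KO+EV 2, 1 without KO+f 2 and 4 without KO+f 3, and its number lower was 0 without KO+f 1, KO+f 2, KO+EV 3 or any 1 WT+EV or KO+s library. The part of such cells in the class II rise was not tested, and in bulk RNA fewer cells of a type and less RNA per cell cannot be told apart.

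**Figure D3:**
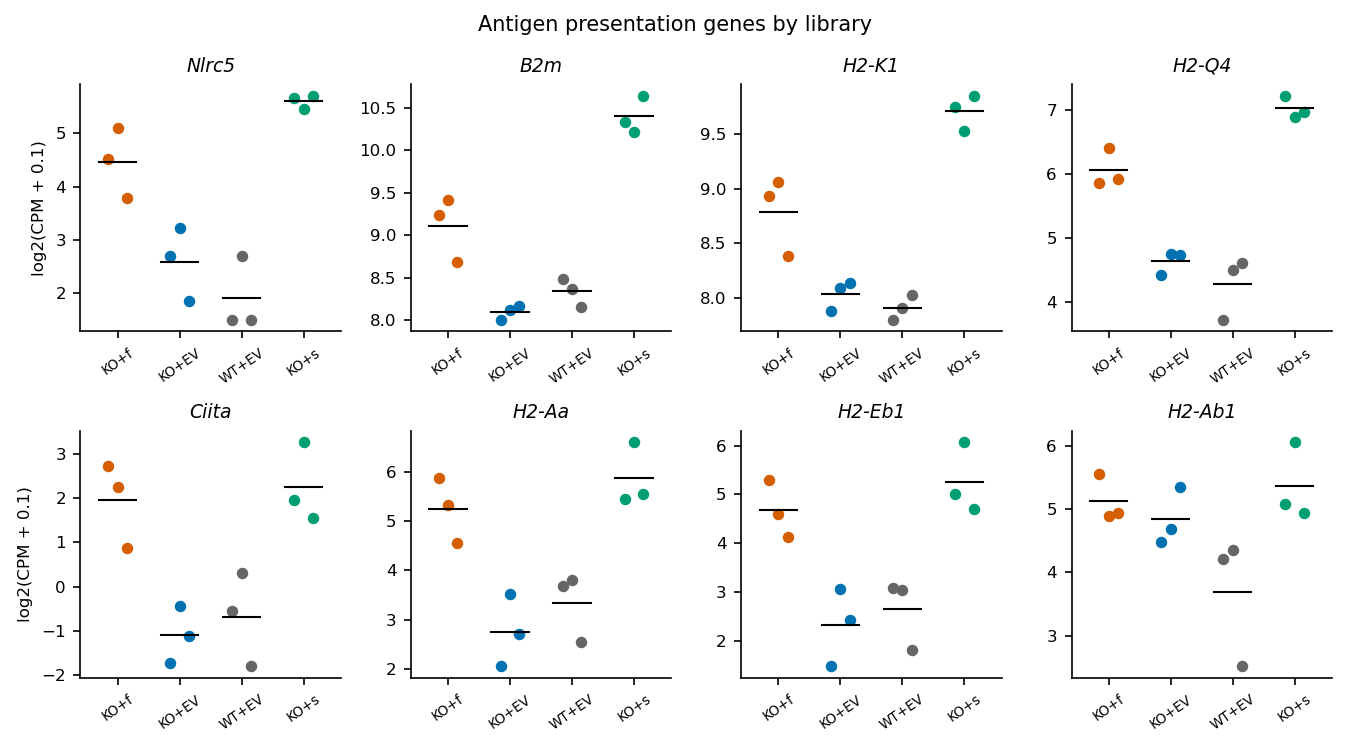
Each panel shows 1 antigen presentation gene, class I above and class II below, with a point per library (log2 of CPM + 0.1) and a bar at the mean of 3. KO+f lies above KO+EV without overlap in all panels except H2-Ab1, and B2m and H2-K1 are higher still in KO+s.

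More receptors of cytokine signals passed as higher than as lower. Of 43 growth factor and cytokine receptors 10 passed as higher and 1 as lower, with a median of 0.12. Il18rap, a subunit of the interleukin 18 receptor, had 50.3, 69.5 and 41.1 CPM in KO+f, against 17.5, 19.4 and 18.5 CPM in KO+EV (1.54 ± 0.18, adjusted p = 0.00113). Lifr, the receptor of leukaemia inhibitory factor, had 13.4, 6.86 and 3.11 CPM in KO+f, against 0.458, 0.137 and 0.521 CPM in KO+EV (4.38 ± 0.63, adjusted p = 0.00294). Il1r1, the signalling receptor of interleukin 1, had 16.9, 14.5 and 7.10 CPM in KO+f, against 0.610, 0.641 and 2.24 CPM in KO+EV (3.46 ± 0.62, adjusted p = 0.00729). All KO+f libraries were above all KO+EV libraries for these receptors. Il10ra, a chain of the interleukin 10 receptor, rose by 2.43 ± 0.42 (adjusted p = 0.00615), and these 4 receptors held their calls. Csf1r, the receptor that monocytes need, had 117, 95.9 and 96.5 CPM in KO+f, against 41.6, 26.9 and 29.1 CPM in KO+EV (1.66 ± 0.36, adjusted p = 0.0174). It did not pass without KO+EV 2 (0.0667), KO+EV 3 (0.0512) or KO+f 1 (0.0535). The number of receptors higher was 5 without KO+EV 2 and 6 without KO+f 1 or KO+f 2. The number lower was 4 without KO+f 3, 1 without KO+EV 3 and 0 without any 1 of the other 10 libraries.

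Downstream of such receptors, 5 of 27 JAK-STAT and SOCS genes passed as higher and 0 as lower. Jak2, a kinase bound to many cytokine receptors, had 113, 117 and 124 CPM in KO+f, against 68.01, 61.7 and 31.7 CPM in KO+EV (1.13 ± 0.22, adjusted p = 0.0107). Pim3, a serine kinase induced by STAT factors, had 23.9, 33.3 and 21.3 CPM in KO+f, against 15.01, 11.7 and 11.5 CPM in KO+EV (1.04 ± 0.19, adjusted p = 0.00815). Both held their calls, and the list count was 2 without KO+f 1 or KO+f 2 and 3 without KO+EV 3. Of 41 genes of the RAS, PI3K and AKT pathway 2 passed, both higher, which is 4.88%, against 11.3% of all genes. That number was 1 without WT+EV 2, KO+EV 2, KO+f 2 or any 1 of the KO+s libraries, 3 without KO+EV 1 or KO+EV 3 (1 of them lower without KO+EV 3), and 4, 1 of them lower, without WT+EV 1.

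Genes that respond to ERK signalling rose in many cases. Of 31 tested, 12 passed as higher and 0 as lower (38.7%), and 30 had a positive log2 change, with a median of 1.30. Dusp5, a nuclear phosphatase that shuts off ERK, had 24.9, 30.97 and 22.7 CPM in KO+f, against 2.44, 1.28 and 0.208 CPM in KO+EV (4.31 ± 0.61, adjusted p = 0.00303). Dusp6, its cytoplasmic counterpart, had 18.9, 35.3 and 22.6 CPM in KO+f, against 8.04, 6.41 and 5.42 CPM in KO+EV (1.95 ± 0.33, adjusted p = 0.00608). KO+f did not overlap KO+EV for either phosphatase, and both held their calls. Fos, the classical immediate early gene, was named after its values were seen. It had 803, 275 and 92.8 CPM in KO+f, against 90.4, 17.5 and 283 CPM in KO+EV (1.58 ± 0.96, adjusted p = 0.299), and its libraries spread widely and overlapped. The list count was 4 without KO+EV 2 or KO+f 1, 5 without KO+f 2, and 8 without KO+EV 1 or KO+EV 3.

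Of 48 Toll-like receptor, inflammasome and NF-kB genes 9 passed as higher and 2 as lower. Nfkb1, an NF-kB subunit, had 321, 309 and 249 CPM in KO+f, against 172, 163 and 152 CPM in KO+EV, and held its call (0.85 ± 0.12, adjusted p = 0.00287). Tlr1, a receptor for bacterial lipopeptides, was lower, with 19.3, 17.4 and 17.4 CPM in KO+f, against 36.6, 27.8 and 43.3 CPM in KO+EV (-0.99 ± 0.22, adjusted p = 0.0173), and did not pass without KO+EV 3 (0.0505) or KO+f 2 (0.0675). The number higher was 2 without KO+EV 2, 3 without KO+f 1, 4 without KO+f 2 and 6 without KO+EV 3. The number lower was 0 without KO+f 2 or KO+EV 3, 1 without KO+f 1 and 3 without KO+EV 1. Interferon response genes had a median of 0.05 (-0.14 without KO+EV 3 and -0.08 without KO+f 1), with 2 of 40 higher and 2 lower, and without KO+f 2 the counts were 0 and 1. Without KO+f 1 or KO+EV 3 they were 1 and 1, without KO+f 3 4 and 2, without WT+EV 3 3 and 3, and without WT+EV 2, KO+s 2 or KO+s 3 2 and 3.

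Adhesion and guidance genes changed in both directions. Of 23 integrin genes 4 passed as higher and 1 as lower. Itgb7, the beta chain of a gut-homing integrin, had 86.9, 88.7 and 41.7 CPM in KO+f, against 8.14, 1.74 and 1.35 CPM in KO+EV (4.28 ± 0.73, adjusted p = 0.00635). Vcl, the adhesion plaque protein vinculin, had 217, 265 and 129 CPM in KO+f, against 95.9, 69.05 and 83.1 CPM in KO+EV (1.30 ± 0.22, adjusted p = 0.00548). Itgb2, the beta chain of leukocyte integrins, had 330.2, 262 and 387 CPM in KO+f, against 549, 501 and 521 CPM in KO+EV (-0.68 ± 0.15, adjusted p = 0.0182), a fall lost without KO+f 1 (0.0553) or KO+f 2 (0.0779). Itgam, which pairs with Itgb2 and was named after its values were seen, had 697, 507 and 528 CPM in KO+f, against 607, 589.5 and 539 CPM in KO+EV (adjusted p = 0.993). Itgb7 and Vcl held their calls. The number of integrin genes lower was 0 without KO+f 1 or KO+f 2 and 2 without KO+f 3 or KO+EV 3.

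Among cadherin and desmosome genes 3 of 17 passed as higher and 1 as lower. Pcdh11x, a protocadherin, held 531 counts over the KO+f libraries and 2 over KO+EV, a ratio of 252.1 (69.44 to 2087). Cdh1, epithelial cadherin, had 2.87, 3.69 and 1.42 CPM in KO+f, against 0.407, 0.320 and 0.312 CPM in KO+EV (2.92 ± 0.56, adjusted p = 0.00904). Both held their calls, and the number lower was 3 without KO+f 3 and 0 without KO+f 1, KO+f 2, KO+EV 1 or KO+EV 2. Epha7, an ephrin receptor, had 266, 352 and 242 CPM in KO+f, against 91.4, 129.8 and 157 CPM in KO+EV (1.19 ± 0.24, adjusted p = 0.0110). Plxna2, a semaphorin receptor, had 0.341, 0.479 and 0.178 CPM in KO+f, against 2.14, 1.56 and 11.6 CPM in KO+EV (-3.92 ± 0.81, adjusted p = 0.0132). Plxna2 was lower in every KO+f library, while its relative Plxnb2 rose by 2.07 ± 0.44 (adjusted p = 0.0144), and these 3 genes held their calls. Of 25 guidance genes 4 passed as higher and 3 as lower, and the number higher was 7 without KO+f 3 and 6 without KO+EV 1.

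Receptors for chemoattractants and nucleotides changed in several cases. Of 21 chemoattractant receptors 6 passed as higher and 1 as lower, and the number higher was 2 without KO+EV 2 or KO+f 1, 3 without KO+f 2 and 4 without KO+EV 3. Gpr183, the oxysterol receptor EBI2, had 26.8, 29.6 and 24.9 CPM in KO+f, against 6.41, 3.84 and 0.937 CPM in KO+EV (2.86 ± 0.53, adjusted p = 0.00880). C3ar1, the receptor of a complement fragment, was the lower one, at low levels throughout, with 0.195, 0.240 and 0.133 CPM in KO+f, against 0.865, 1.19 and 2.40 CPM in KO+EV (-2.93 ± 0.59, adjusted p = 0.0116). Both held their calls. Of 37 channel and transporter genes 8 passed as higher and 4 as lower. Cacna1e, a voltage-gated calcium channel subunit, had 7.88, 5.61 and 9.90 CPM in KO+f, against 0.967, 0.732 and 0.469 CPM in KO+EV (3.42 ± 0.41, adjusted p = 0.00113). P2rx4, an ATP-gated channel, had 49.5, 38.6 and 31.8 CPM in KO+f, against 21.7, 22.01 and 22.7 CPM in KO+EV (0.85 ± 0.16, adjusted p = 0.00924). The nucleotide receptor genes P2ry13 (2.72 ± 0.46, adjusted p = 0.00610) and P2ry14 (3.66 ± 0.63, adjusted p = 0.00610) rose too, and these 4 genes held their calls. The number of channel genes higher was 4 without KO+EV 2 and 5 without KO+f 2, and the number lower 0 without KO+f 2 and 1 without KO+f 1, KO+EV 2 or KO+EV 3.

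Retinoid genes gave 3 higher and 0 lower of 23, so that 13% passed, against 11.3% of all genes. The counts were 2 higher and 2 lower without KO+f 3 and 2 higher and 1 lower without KO+f 2. Dhrs3, a retinal reductase induced by retinoic acid, had 59.6, 57.5 and 39.5 CPM in KO+f, against 14.4, 8.33 and 15.8 CPM in KO+EV (2.02 ± 0.24, adjusted p = 0.000919). Rarg, a retinoic acid receptor, had 30.4, 24.2 and 16.96 CPM in KO+f, against 7.94, 5.95 and 4.79 CPM in KO+EV (1.94 ± 0.24, adjusted p = 0.00150). Both held their calls. In the WNT and Notch list 2 of 32 passed, which is 6.25%. The number was 4 without KO+EV 1 or KO+f 3, and 1 without WT+EV 2, WT+EV 3, KO+EV 2, KO+f 1, KO+f 2, KO+s 1 or KO+s 2. Jag2, a Notch ligand, rose by 2.85 ± 0.37 (adjusted p = 0.00169) and held its call. In the TGF-beta and BMP list, a pathway PRDM16 is known to act on, 2 of 28 passed, which is 7.14%, and 0 without WT+EV 2, KO+EV 2, KO+f 2, KO+s 1 or KO+s 3 and 1 without WT+EV 1, WT+EV 3, KO+f 1, KO+f 3 or KO+s 2.

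Several genes for DNA synthesis and division fell. Of 53 replication and nucleotide synthesis genes 12 passed as lower and 0 as higher, and of 36 mitosis genes 8 and 0. Lig1, the ligase that joins Okazaki fragments, had 158, 159.8 and 195 CPM in KO+f, against 245, 276 and 304 CPM in KO+EV (-0.69 ± 0.13, adjusted p = 0.00989). Chaf1a, a subunit of the histone chaperone that follows the fork, had 111, 117 and 117 CPM in KO+f, against 156, 173 and 188 CPM in KO+EV (-0.59 ± 0.12, adjusted p = 0.0118). Pole2, a subunit of a replicative polymerase, had 34.00, 42.6 and 33.6 CPM in KO+f, against 56.4, 61.5 and 90.3 CPM in KO+EV (-0.92 ± 0.20, adjusted p = 0.0145). The falls were under 2-fold, with no overlap of groups, and KO+EV 3 was the highest library for each. Lig1 and Chaf1a held their calls, and Pole2 did not without KO+f 1 (0.0552). The medians were -0.41 for replication and -0.35 for mitosis, and over the leave-one-out fits they stayed between -0.50 and -0.32 and between -0.44 and -0.31. The counts moved much more: replication genes passing as lower numbered 3 without KO+f 1, 6 without KO+f 2, 7 without KO+EV 2, 8 without KO+EV 3 and 16 without KO+f 3.

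Espl1, the separase that frees sister chromatids, had 78.5, 79.05 and 78.4 CPM in KO+f, against 117, 113 and 129 CPM in KO+EV (-0.61 ± 0.13, adjusted p = 0.0167). Bub1b, a spindle checkpoint kinase, had 170.3, 167 and 204 CPM in KO+f, against 298, 317 and 259.9 CPM in KO+EV (-0.69 ± 0.17, adjusted p = 0.0258). Neither gene overlapped between groups, but no mitosis gene held its call. Espl1 did not pass without KO+f 1 (0.0532) or KO+f 2 (0.0642), and Bub1b without KO+EV 1 (0.0537), KO+EV 2 (0.0861), KO+f 1 (0.0827) or KO+f 2 (0.101). The number of mitosis genes passing as lower was 0 without KO+f 1, 1 without KO+f 2 or KO+EV 2, 3 without KO+EV 1, KO+EV 3, KO+s 1 or KO+s 2, 4 without KO+s 3, 5 without WT+EV 3 and 13 without WT+EV 1. Cdkn1c, an inhibitor of cyclin-dependent kinases, had 47.2, 46.9 and 36.5 CPM in KO+f, against 15.9, 13.3 and 25.6 CPM in KO+EV, and Ccnd2, a G1 cyclin, 21.3, 112 and 33.5 CPM in KO+f, against 3.76, 2.56 and 8.75 CPM in KO+EV. Both rose (1.25 ± 0.27, adjusted p = 0.0157, and 3.47 ± 0.72, adjusted p = 0.0144). Cdkn1c lost its call without KO+EV 2 (0.0585), KO+f 1 (0.0504) or KO+f 2 (0.0506), and Ccnd2 without KO+EV 2 (0.0581).

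Several genes of protein synthesis and one-carbon metabolism fell as well. Of 44 aminoacyl-tRNA synthetase and amino acid response genes 9 passed as lower and 1 as higher, with a median of -0.43. Nars, asparaginyl-tRNA synthetase, had 224, 221 and 212 CPM in KO+f, against 337, 328 and 374 CPM in KO+EV (-0.66 ± 0.11, adjusted p = 0.00597). Mthfd1, a cytosolic folate enzyme, had 90.97, 88.3 and 78.2 CPM in KO+f, against 131, 155 and 214 CPM in KO+EV (-0.96 ± 0.19, adjusted p = 0.0106). Shmt2, the mitochondrial serine hydroxymethyltransferase, had 142, 139 and 153 CPM in KO+f, against 212, 229 and 235 CPM in KO+EV (-0.64 ± 0.15, adjusted p = 0.0191). Every KO+f library was below every KO+EV library in all 3 genes. Nars and Mthfd1 held their calls, and Shmt2 did not pass without KO+EV 2 (0.0601), KO+f 1 (0.0617) or KO+f 2 (0.0700). The number lower was 2 without KO+f 2, 3 without KO+EV 3, 4 without KO+EV 2, 5 without KO+f 1 and 6 without KO+s 3. Ribosome biogenesis genes gave 0 higher and 4 lower of 42, with Bop1, a processing factor of the large subunit, at 105, 96.6 and 85.5 CPM in KO+f, against 129, 142 and 176 CPM in KO+EV (-0.64 ± 0.13, adjusted p = 0.0124). Bop1 held its call, and the list count was 1 without KO+f 1, KO+f 3 or KO+EV 2 and 2 without KO+f 2 or KO+EV 3.

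In the TCA cycle list 10 of 33 genes passed as lower and 0 as higher, with a median of -0.35. Fh1, fumarate hydratase, had 85.8, 87.4 and 81.4 CPM in KO+f, against 134, 142 and 143 CPM in KO+EV (-0.72 ± 0.12, adjusted p = 0.00548). Idh3a, a subunit of the NAD-dependent isocitrate dehydrogenase, had 115, 108 and 108 CPM in KO+f, against 153, 172 and 159 CPM in KO+EV (-0.55 ± 0.13, adjusted p = 0.0249). These falls were small and even across libraries. Fh1 held its call, and Idh3a did not without KO+EV 2 (0.0876), KO+f 1 (0.0597) or KO+f 2 (0.0812). The count was 1 without KO+EV 2 or KO+f 2, 3 without KO+f 1 and 5 without KO+EV 3, while the median stayed between -0.41 and -0.29. Glycolysis and pentose phosphate genes gave 0 higher and 4 lower of 38, so that 10.5% passed, against 11.3% of all genes. The number lower was 1 without KO+f 2, 2 without KO+EV 2 and 3 without KO+f 3. Hk2, the first enzyme of glycolysis, had 68.9, 70.3 and 46.8 CPM in KO+f, against 112, 105 and 122 CPM in KO+EV (-0.86 ± 0.19, adjusted p = 0.0156), and held its call.

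In the sterol and fatty acid list 5 of 35 passed as lower and 1 as higher. Sqle, an early enzyme of the sterol branch, had 7.73, 9.01 and 15.05 CPM in KO+f, against 19.7, 47.2 and 43.7 CPM in KO+EV (-1.80 ± 0.39, adjusted p = 0.0156). Abca1, the exporter of cellular cholesterol, had 25.7, 19.1 and 16.9 CPM in KO+f, against 8.29, 3.75 and 1.15 CPM in KO+EV (2.22 ± 0.53, adjusted p = 0.0237). A synthesis gene was lower and the exporter higher in every KO+f library. Without KO+EV 2, KO+f 1 and KO+f 2 in turn, the adjusted p of Sqle was 0.0554, 0.0593 and 0.0660, and that of Abca1 0.0833, 0.0697 and 0.0594. The number lower was 0 without KO+EV 2, 1 without KO+f 1 or KO+f 2, 2 without KO+EV 3 and 8 without KO+f 3. Alox15, a lipoxygenase, had 0.195, 0.144 and 0.266 CPM in KO+f, against 1.83, 1.51 and 1.35 CPM in KO+EV (-2.91 ± 0.56, adjusted p = 0.00904), a call it held.

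**Figure D4:**
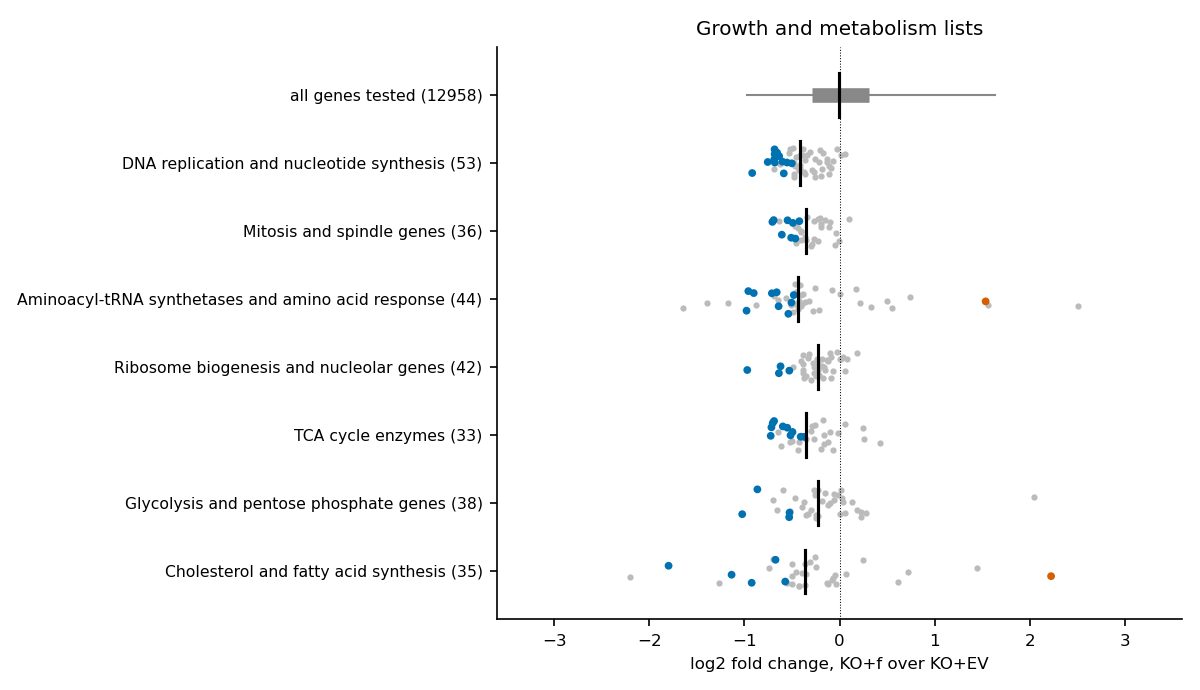
Each point is a gene of 7 growth and metabolism lists by its log2 fold change, KO+f over KO+EV, coloured where it passed, and black bars mark medians. The top row shows all 12958 genes (thick line, 25th to 75th percentile from -0.29 to 0.31; thin line, 5th to 95th percentile from -0.97 to 1.64), and the list medians lie between -0.43 and -0.23.

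Of 16 DNA methylation and TET enzymes 2 passed as higher and 1 as lower. Without KO+f 1, KO+f 2, KO+EV 2 or KO+EV 3 the counts were 1 and 0, and without any 1 KO+s library 1 and 1. Tet1, which oxidises methylcytosine, had 26.1, 34.4 and 21.2 CPM in KO+f, against 7.99, 5.08 and 4.63 CPM in KO+EV (2.21 ± 0.40, adjusted p = 0.00770). Dnmt1, the maintenance methyltransferase, had 524, 475 and 559 CPM in KO+f, against 744, 815 and 844 CPM in KO+EV (-0.63 ± 0.15, adjusted p = 0.0222). The groups did not overlap for either gene, and Tet1 held its call. Dnmt1 did not pass without KO+EV 2 (0.0685), KO+EV 3 (0.0531), KO+f 1 (0.0631) or KO+f 2 (0.0836). Kdm5b, a demethylase of histone H3 lysine 4, had 110.3, 109 and 99.8 CPM in KO+f, against 48.5, 42.2 and 28.8 CPM in KO+EV (1.42 ± 0.29, adjusted p = 0.0136), and held its call. In the polycomb and histone methyltransferase list 5 of 47 passed as higher and 1 as lower, so that 12.8% passed, against 11.3% of all genes. The number higher was 1 without KO+EV 2, 2 without KO+f 1 or KO+f 2 and 3 without KO+EV 3.

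Of 22 known partners of PRDM16 and members of its family tested, 0 passed in edgeR, 4 had an unadjusted p under 0.05 and 1 passed in DESeq2, and the median was -0.03. Ctbp1, a corepressor that binds PRDM16 and is named after its values were seen, had 227, 225 and 262 CPM in KO+f, against 216, 214 and 247 CPM in KO+EV (0.07 ± 0.11, adjusted p = 0.693). Ctbp2, its relative, had 67.2, 58.96 and 65.4 CPM in KO+f, against 81.9, 89.3 and 91.8 CPM in KO+EV (-0.46 ± 0.14, adjusted p = 0.0526). Ctbp2 was lower in every KO+f library and missed the threshold narrowly. Brown fat and fatty acid oxidation genes, another known setting of PRDM16, had a median of -0.03, with 3 of 34 passing (8.82%), all lower. The number was 1 without KO+EV 2, KO+EV 3, KO+f 1 or KO+f 2, and the median was above 0 without KO+EV 1 (0.00332) or KO+EV 2 (0.0275).

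Granule protein genes were mixed. Of 30 tested, 6 passed as higher and 1 as lower, with a median of -0.03 (0.23 without KO+EV 3). Chi3l1, a chitinase-like protein, had 9.34, 9.92 and 4.62 CPM in KO+f, against 1.73, 2.38 and 1.15 CPM in KO+EV (2.17 ± 0.37, adjusted p = 0.00615). Olfm4, a marker of a neutrophil subset, had 213, 333 and 110.3 CPM in KO+f, against 12.2, 13.1 and 19.5 CPM in KO+EV (3.87 ± 0.70, adjusted p = 0.00815). Every KO+f library was above every KO+EV library, and both genes held their calls. The number higher was 2 without KO+EV 2, KO+EV 3, KO+f 1 or KO+f 2, 3 without KO+s 3 and 4 without KO+s 1. The summed level of 6 mature neutrophil markers was 269 to 719 CPM in KO+f and 523 to 551 CPM in KO+EV.

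Fcgr3, an Fc receptor of myeloid blasts, had 106, 118 and 142 CPM in KO+f, against 292, 233 and 261 CPM in KO+EV (-1.10 ± 0.18, adjusted p = 0.00525), and held its call. Itga2b, a platelet integrin also found on early progenitors, had 7.30, 9.25 and 3.37 CPM in KO+f, against 0.865, 0.412 and 0.729 CPM in KO+EV (3.31 ± 0.59, adjusted p = 0.00695). Its groups did not overlap, and it held its call. Car1, an erythroid carbonic anhydrase, held 114 counts over KO+f and 2 over KO+EV, a ratio of 54.12 (14.64 to 452.3), and its adjusted p was 0.0509 without KO+EV 2. Megakaryocyte and platelet genes gave 4 higher and 0 lower of 15 (median 1.36), and erythroid genes 3 and 0 of 15 (median 1.41). With genes limited to a mean of at least 5 CPM, 2 erythroid genes were left, 0 passed and the median turned to -0.119. The number higher among megakaryocyte genes was 2 without KO+f 2, and among erythroid genes 0 without KO+EV 2 and 2 without KO+f 1 or KO+EV 3. The part of such cells in these rises was not tested. The 6 erythroid markers, of which Hba-a1 and Hbb-b1 had no counts, summed to 6.90 to 8.88 CPM in KO+f and 2.10 to 3.02 CPM in KO+EV, and the megakaryocyte markers to 12.4 to 16.7 CPM in KO+f and 2.29 to 4.22 CPM in KO+EV. Of 3 erythroid markers tested 0 passed, and of 3 megakaryocyte markers tested 1 did, Itga2b. The megakaryocyte markers Pf4 and Ppbp were not tested. For them no KO+f library exceeded 0.292 CPM, and no KO+EV library 0.0521 CPM. Gp9 (2.54 ± 0.82, adjusted p = 0.0675) and Gp1ba (1.21 ± 0.45, adjusted p = 0.0997), named after their values were seen, had positive changes. Neither passed, and the groups overlapped for both. T and NK markers summed to 35.2 to 164 CPM in KO+f and 44.8 to 152 CPM in KO+EV, ranges that overlap, and most of the sum was Nkg7, with 59.9, 160.1 and 30.8 CPM in KO+f, against 51.9, 37.1 and 148 CPM in KO+EV. In the wider T and NK list 4 of 14 genes passed as higher and 0 as lower (median 0.36), so that 28.6% passed, against 11.3% of all genes. Cd28 did not overlap between the groups, as the rule that chose it required. The number higher was 1 without KO+EV 2 or KO+f 2 and 2 without KO+EV 3 or KO+f 1. Hepatocyte markers were at 0 to 0.192 CPM in KO+f and 0 to 0.0509 CPM in KO+EV.

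**Figure D5:**
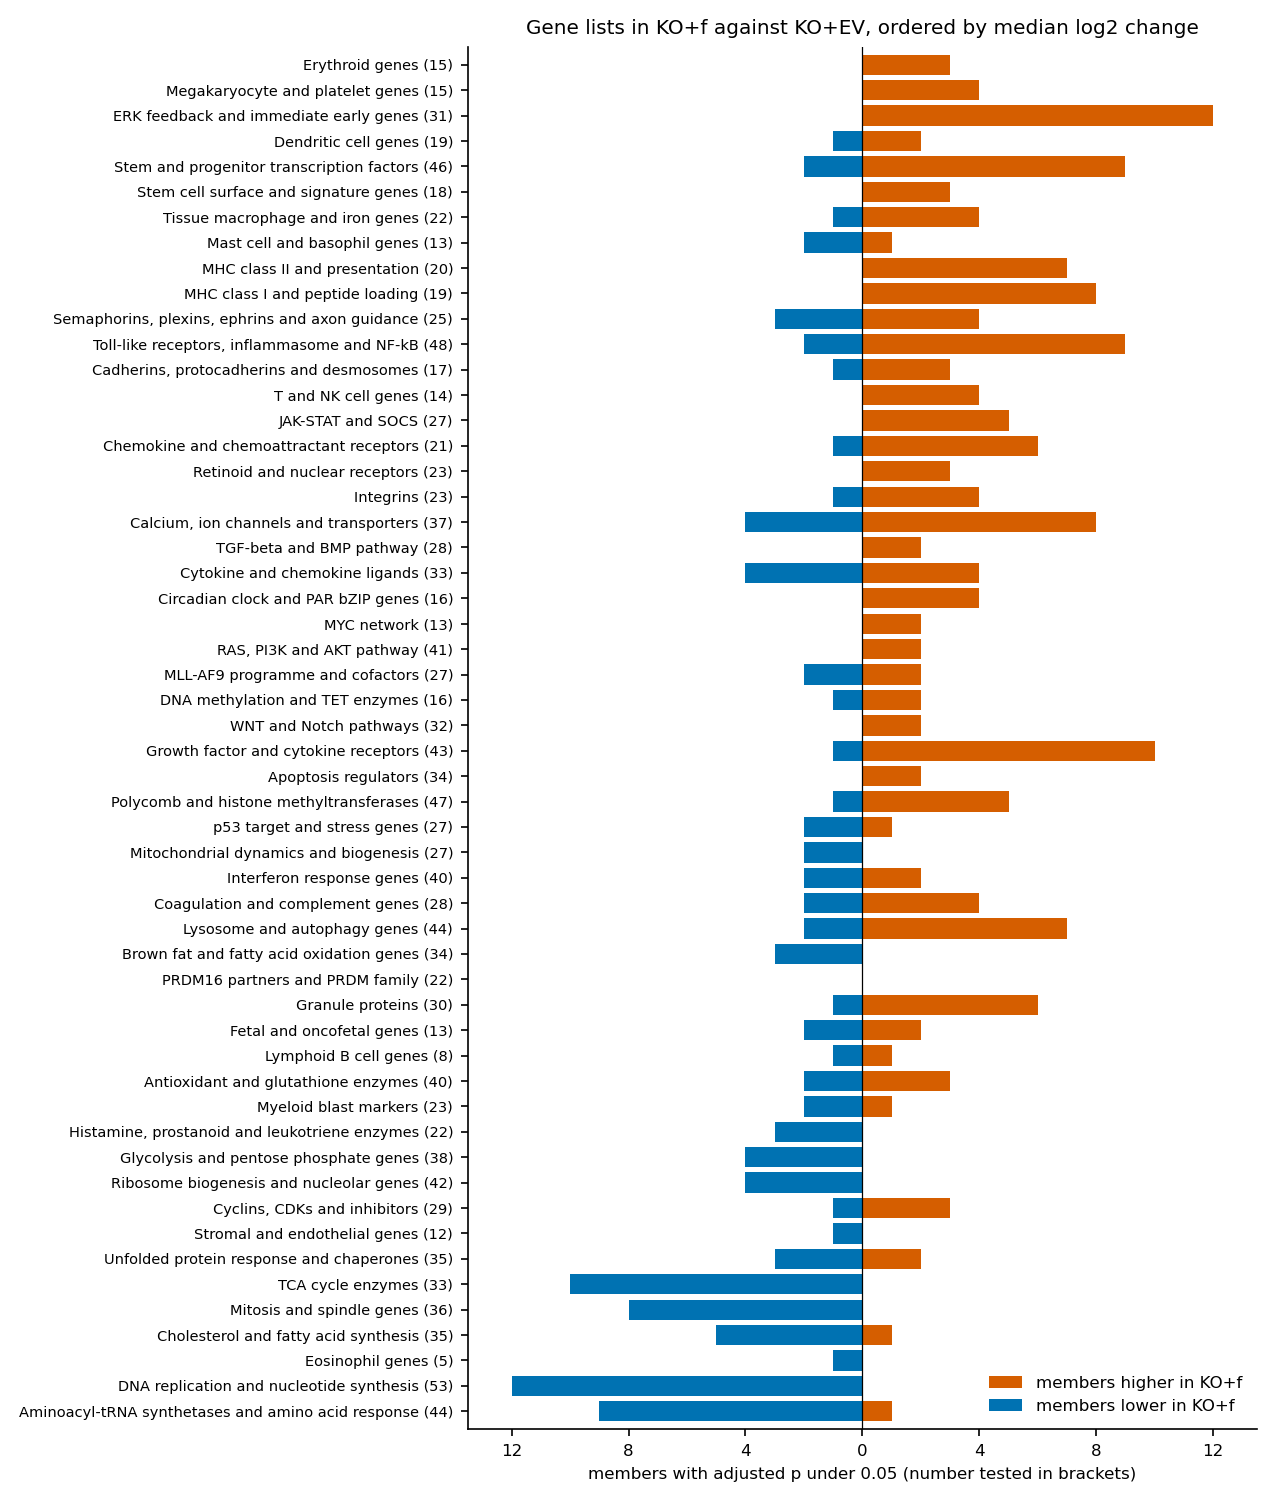
Each row is 1 of 54 gene lists, with the number of genes tested in brackets. Bars to the right count members higher in KO+f and bars to the left members lower, from 12 higher in the ERK list to 12 lower in the replication list, and rows are ordered by median log2 change.

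Against wild-type leukaemia cells, 1292 genes passed in edgeR between KO+f and WT+EV, 792 higher and 500 lower (9.97% of genes, 6.11% higher and 3.86% lower). The number was 559 without WT+EV 3, 625 without KO+f 2, 655 without WT+EV 1 and 663 without KO+f 1. It was 2069 in DESeq2. This comparison shares the KO+f libraries with the one above. Mef2c had 591, 579 and 371 CPM in KO+f, against 12.9, 24.3 and 10.7 CPM in WT+EV (5.01 ± 0.60, adjusted p = 0.00133), and Dsp 373, 355 and 158 CPM in KO+f, against 1.22, 3.41 and 3.82 CPM in WT+EV (6.69 ± 0.95, adjusted p = 0.00279). Tet1 had 26.1, 34.4 and 21.2 CPM in KO+f, against 2.80, 3.56 and 0.942 CPM in WT+EV (3.49 ± 0.43, adjusted p = 0.00133). All 3 genes were above the wild-type level without overlap. Matk had 59.4, 49.4 and 80.8 CPM in KO+f, against 262, 256 and 272 CPM in WT+EV (-2.06 ± 0.16, adjusted p = 8.2e-05), and Alox5, the enzyme of leukotriene synthesis, 7.83, 5.13 and 14.3 CPM in KO+f, against 118, 60.95 and 89.8 CPM in WT+EV (-3.30 ± 0.54, adjusted p = 0.00501). These 5 genes held their calls against WT+EV.

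Other genes did not pass against WT+EV although they passed against KO+EV. Zc3h12c had 67.6, 90.99 and 104 CPM in KO+f, against 145, 119 and 23.9 CPM in WT+EV (-0.13 ± 0.70, adjusted p = 0.923). Gpr183 had 26.8, 29.6 and 24.9 CPM in KO+f, against 18.1, 40.5 and 22.1 CPM in WT+EV (0.01 ± 0.48, adjusted p = 0.994). Mtmr7 had 2.82, 1.53 and 5.10 CPM in KO+f, against 1.34, 2.89 and 3.53 CPM in WT+EV (0.28 ± 0.42, adjusted p = 0.705). For these 3 genes the KO+f and WT+EV libraries overlapped. Whether the changes against WT+EV and KO+EV differ for these genes was not tested. By list, class I genes gave 7 higher and 0 lower of 19 against WT+EV with a median of 0.46. Replication genes gave 0 higher and 14 lower of 53 (median -0.40), and the number lower was 3 without WT+EV 3 or KO+f 1, 4 without WT+EV 1, 6 without WT+EV 2 or KO+f 2, 7 without KO+EV 2, and 9 without KO+EV 1 or KO+f 3. Mitosis genes had a median of -0.14, and ERK feedback and immediate early genes a median of -0.37 with 2 of 31 higher and 1 lower. The ERK median was -0.58 without WT+EV 1, -0.23 without WT+EV 2 or WT+EV 3 and -0.66 without KO+f 1. The number higher in it was 0 without WT+EV 1 or KO+f 2, 1 without WT+EV 2 or WT+EV 3 and 4 without KO+EV 3, and the number lower was 2 without WT+EV 1 or KO+EV 3 and 0 without WT+EV 2, WT+EV 3, KO+s 1, KO+s 3 or any 1 KO+f library. Granule genes gave 0 higher and 7 lower of 30 with a median of -0.73, with 6 higher and 8 lower without KO+EV 3 and 3 higher and 6 lower without KO+f 3. Without WT+EV 3 the median was -0.17. The 6 mature neutrophil markers summed to 269 to 719 CPM in KO+f, against 1264, 1984 and 7058 CPM in WT+EV 1, 2 and 3, and their part in the granule result was not tested.

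Between the full-length and the short form, 494 genes passed in edgeR, 228 higher in KO+f and 266 lower (3.81% of genes, 1.76% higher and 2.05% lower). The number was 37 without KO+s 1, 69 without KO+s 3, 129 without KO+f 3 and 1047 without KO+EV 3. Without KO+f 2 the balance turned, with 213 higher and 117 lower. It was near even without KO+EV 3 (532 and 515) or KO+f 3 (65 and 64). In DESeq2 1406 genes passed, 719 higher and 687 lower. Prdm16 did not differ detectably, with 331, 234 and 236 CPM in KO+f, against 312, 241 and 192 CPM in KO+s (0.10 ± 0.22, adjusted p = 0.819). B2m had 606, 683 and 411 CPM in KO+f, against 1296, 1191 and 1602 CPM in KO+s (-1.27 ± 0.18, adjusted p = 0.00746). Chi3l1 had 9.34, 9.92 and 4.62 CPM in KO+f, against 79.3, 60.9 and 76.6 CPM in KO+s (-3.18 ± 0.36, adjusted p = 0.00489). Both were lower with the full-length form in every library.

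Itgam, named after its values were seen, had 697, 507 and 528 CPM in KO+f, against 1424, 1136 and 1339.5 CPM in KO+s (-1.17 ± 0.15, adjusted p = 0.00489). Matk had 59.4, 49.4 and 80.8 CPM in KO+f, against 24.3, 28.2 and 23.5 CPM in KO+s (1.32 ± 0.16, adjusted p = 0.00489), and Pmp22 31.04, 11.03 and 44.4 CPM in KO+f, against 1.95, 0.532 and 1.79 CPM in KO+s (4.31 ± 0.57, adjusted p = 0.00592). Both genes were lower in KO+f than in KO+EV and higher than in KO+s. Ttyh2, a membrane protein of the tweety family, was higher in KO+f, with 10.7, 15.1 and 12.4 CPM in KO+f, against 4.00, 2.61 and 2.25 CPM in KO+s (2.10 ± 0.28, adjusted p = 0.00562). Shmt2 had 142, 139 and 153 CPM in KO+f, against 59.2, 88.3 and 70.6 CPM in KO+s (0.99 ± 0.15, adjusted p = 0.00819). The genes given with values here, Prdm16 aside, held their calls against KO+s. By list, granule genes gave 0 higher and 9 lower of 30 against KO+s (median -1.64), and the number lower was 3 without KO+f 3 or KO+s 1, 4 without KO+s 3 and 5 without KO+f 2. The mature neutrophil markers summed to 269 to 719 CPM in KO+f, against 1923 to 3177 CPM in KO+s, and their part was not tested here either. Class I genes gave 0 higher and 4 lower of 19 (median -0.12, and -0.23 to -0.05 without 1 library), and the number lower was 1 without KO+s 1 or KO+s 3 and 2 without KO+f 3. Replication genes had a median of 0.18, and 0.11 to 0.26 without 1 library. ERK feedback and immediate early genes gave 0 higher and 2 lower of 31, with 6 positive changes. Their median was -0.74, and -1.08 to -0.58 without 1 library. The number lower in that list was 0 without KO+f 3, KO+s 1 or KO+s 3. Mef2c (-0.49 ± 0.50, adjusted p = 0.602), H2-Aa (-0.62 ± 0.47, adjusted p = 0.469) and Dusp5 (0.00 ± 0.51, adjusted p = 0.999) did not pass, which does not show that both forms act alike.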

How the data were processed

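The authors deposited raw counts per gene for 12 MLL-AF9 libraries. TruSeq libraries were made after poly-A selection, per the labels' protocols. Bcl2fastq 2.17, TopHat, DESeq and mm9 are named in the submitters' processing notes, and the counting tool and strand setting are not given in the sources used here. Each column of counts was matched to its library by name. From the counts, edgeR 4.0.16 (R 4.3.3) fitted all 12 libraries (filterByExpr, TMM, robust quasi-likelihood), keeping 12958 of 23284 genes, with two-sided tests and Benjamini-Hochberg adjustment over all of them. The standard error is the log2 change over the root of F. Intervals cover counting error only. On simulated counts (12810 genes), KO+f against KO+EV recovered 44.0% of 2-fold and 79.6% of 4-fold changes. No pair of libraries agreed within counting noise. DESeq2 1.42.0 was an alternative.

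The members and the 54 lists were chosen with earlier results of these data known. Named genes were Prdm16, up to 12 per direction by size and by p among called genes of mean log2 CPM of at least 2 without overlap, and up to 5 called members per list with the smallest p (up to 2 where none passed). Other genes are said to be named after their values were seen, and some genes within the rule are not reported here. Promoters came from RefSeq (GRCm38.p6).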

Additional observations from a re-analysis of the deposited data

How the results depend on the processing

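For KO+f against KO+EV, 1461 genes passed, and 392 when only the 2 groups compared were fitted (287 higher, 105 lower) and 2267 in DESeq2. Leaving out 1 library gave 559 to 1533. For KO+f against WT+EV, 1292 passed, 2069 in DESeq2, and 559 to 1931 without 1 library. For KO+f against KO+s, 494 passed, 1406 in DESeq2, and 37 to 1047 without 1 library, and the share higher was 46.2% in the fit reported and 64.5% without KO+f 2. That share was 51.1% in DESeq2, 50.8% without KO+EV 3 and 50.4% without KO+f 3. Replicate numbers did not pair the KO+f and KO+EV libraries: the correlations of same-numbered libraries were 0.0634, -0.182 and -0.0175, and libraries did not all match their own number best. Between KO+f and KO+s, replicate 2 matched its own number best (0.289), and replicates 1 and 3 did not (0.039 and -0.0248). With the replicate number as a block 1442, 1210 and 372 genes passed in the 3 comparisons. Of 222 named genes that passed, 97 passed without each library in turn, 214 with the block and 221 in DESeq2. Where only the 2 groups were fitted, 98 of 214 passed. No named gene changed sign. List medians changed sign in 41 of 918 values, 37 of them from lists whose reported median lay within 0.25 of 0, and the other 4 are these. The eosinophil median of -0.41 ranged from -0.690 to 0.726 without 1 library (0.726 without KO+EV 1). At a mean CPM of at least 5, the erythroid median of 1.41 was -0.119, the stromal median of -0.31 was 0.350 and the cadherin median of 0.43 was -0.0495, with fewer genes tested. The causes of the other shifts were not tested. Depth limits genes near 0 in KO+EV, whose fold changes depend on few counts.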
